A study of Mus musculus with 4 samples.

Results

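The 37 integrin and laminin genes of the mouse were examined for binding of the transcription factor STAT3 in the spinal cord after injury. They were chosen by symbol alone: protein-coding genes named Itga or Itgb with a number or a single letter, which includes Itgam, Itgax, Itgal and Itgav, and genes named Lama, Lamb or Lamc with a digit. This gave 26 integrins (18 alpha and 8 beta subunits) and 11 laminins, out of 21887 protein-coding genes on chromosomes 1 to 19, X and Y in the RefSeq annotation of GRCm38.p6. SCI mice were C57BL/6 animals with a moderate contusion of 60 kdyn at thoracic level 9, and sham mice were C57BL/6 animals with the laminectomy at that level only. Tissue of the injury epicentre, or of the same region in sham, was taken at day 7, and 3 mice were pooled for each library. The series has 1 STAT3 ChIP-seq library per condition, made with a rabbit antibody against STAT3, and its 2 input libraries were not analysed here. Since each condition has 1 library, no difference between SCI and sham has a replicate check and none was tested.

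Integrins are transmembrane receptors made of an alpha and a beta subunit, and they tie cells to the extracellular matrix or to other cells. Laminins are secreted heterotrimers of an alpha, a beta and a gamma chain and form the framework of basement membranes, which line vessels and the glial border of the spinal cord. In injured cord both are known from infiltrating leukocytes, from vessels and from the border between astrocytes and the fibrotic core. The cells were dissociated without a sort for a cell type, per the labels' protocols. Peak lists hold binding sites and no expression, so the cell types in the samples could not be checked against their markers. In such a mixture, more cells with a bound site and stronger binding per cell cannot be told apart.

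The promoters that the results below refer to are printed first. They belong to the 3 members with a STAT3 peak centre within 1.5 kb of a start in the RefSeq promoter table (Itgb7, Lama2 and Itgb5) and to the 2 with a STAT-type motif in the window (Lamb2 and Itga10). Each runs 5′ to 3′ on the gene's strand, from 250 bases before the start to 50 from the start on, and is taken from RefSeq (GRCm38.p6). In the first 3 the capitals mark the 50 bases from the start on, and in the last 2 they mark the motif. Of the 37 members, 23 matched the table, with 26 promoters.
Itgb7 (minus strand, chr15:102231886-102232185): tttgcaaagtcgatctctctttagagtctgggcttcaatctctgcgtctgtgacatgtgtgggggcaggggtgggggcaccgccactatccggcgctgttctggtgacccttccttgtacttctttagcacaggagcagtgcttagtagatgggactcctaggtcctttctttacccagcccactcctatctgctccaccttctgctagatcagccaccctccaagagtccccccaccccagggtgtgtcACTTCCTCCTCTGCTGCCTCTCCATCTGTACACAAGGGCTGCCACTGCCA
Lama2 (minus strand, chr10:27616893-27617192): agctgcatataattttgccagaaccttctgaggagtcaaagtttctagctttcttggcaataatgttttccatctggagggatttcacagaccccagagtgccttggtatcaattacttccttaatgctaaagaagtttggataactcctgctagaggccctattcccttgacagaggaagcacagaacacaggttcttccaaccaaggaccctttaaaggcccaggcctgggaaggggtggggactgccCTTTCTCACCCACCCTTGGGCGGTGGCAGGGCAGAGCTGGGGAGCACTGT
Itgb5 (plus strand, chr16:33829415-33829714): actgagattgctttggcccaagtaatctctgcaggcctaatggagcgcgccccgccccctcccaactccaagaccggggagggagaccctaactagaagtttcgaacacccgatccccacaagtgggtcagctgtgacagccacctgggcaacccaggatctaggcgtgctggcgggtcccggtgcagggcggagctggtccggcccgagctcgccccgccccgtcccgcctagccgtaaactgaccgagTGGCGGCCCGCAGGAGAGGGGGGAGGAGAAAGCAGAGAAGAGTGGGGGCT
Lamb2 (plus strand, chr9:108479612-108479911): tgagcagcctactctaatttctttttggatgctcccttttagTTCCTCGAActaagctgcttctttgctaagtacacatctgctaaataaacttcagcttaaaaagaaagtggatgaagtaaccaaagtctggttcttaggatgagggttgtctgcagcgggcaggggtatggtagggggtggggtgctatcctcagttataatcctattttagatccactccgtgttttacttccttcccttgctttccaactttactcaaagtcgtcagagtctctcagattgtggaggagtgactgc
Itga10 (plus strand, chr3:96645334-96645633): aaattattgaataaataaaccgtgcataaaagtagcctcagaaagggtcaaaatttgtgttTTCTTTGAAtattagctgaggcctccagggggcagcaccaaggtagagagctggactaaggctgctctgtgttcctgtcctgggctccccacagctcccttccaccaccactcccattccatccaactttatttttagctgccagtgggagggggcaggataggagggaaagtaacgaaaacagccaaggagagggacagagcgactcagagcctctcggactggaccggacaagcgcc

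No STAT3 peak of either list overlapped any of these 26 promoters, and the full STAT motif was found in none of them. Over all 32851 promoters of the table, 0.682% were overlapped by an SCI peak and 1.69% by a sham peak. A count of 0 of 26 allows a share of up to 11.5%, so a difference from these levels was not detectable. The searched motifs were TTCCNGGAA, TTCCNNGAA and TTCNNNGAA on both strands, and each match to one of the first 2 is also a match to the third. TTCCNGGAA was in 0 of the 26 promoters and in 1.15% of all promoters. TTCCNNGAA was in 1 of the 26, that of Lamb2, starting 208 bases before the start of the gene, and it was in 4.81% of all. TTCNNNGAA was in 2, those of Lamb2 and Itga10, where it begins 189 bases before the start, and in 8.30% of all. These are matches of letters and no measured sites, and peak sequences themselves were not used here. Among the starts in this table, the nearest SCI peak was centred 867.5 bp upstream of that of Itgb7, and the next 1089.5 bp upstream of that of Lama2. In sham the nearest was centred 1496.5 bp upstream of that of Itgb5. The gene table places the start of Itgav before the one in the promoter table, and a sham peak was centred 568.5 bp before it. Over all promoters of the table, 4.35% had an SCI peak and 10.5% a sham peak within 1.5 kb of the start.

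As a family, the integrins and laminins had about as many STAT3 peaks as other genes of their length, in SCI and in sham. A gene was counted when the centre of a peak fell within its body or no more than 5 kb from either end, and centres of peaks with an even width fall between bases. By this count 23 of the 37 members had an SCI peak, against 43.9% of all protein-coding genes, and 36 had a sham peak, against 66.7%. The members are long genes, with a median length of 62.5 kb against 17.2 kb for all protein-coding genes, and long genes hold more peaks. Protein-coding genes in the same of 10 length classes would give 25.2 members with an SCI peak and 32.8 with a sham peak. The SCI list had 58 peaks at the members and the sham list 144. The 200 protein-coding genes nearest in length to each member gave 60.5 SCI and 147 sham peaks, and the length classes 66.5 and 164. The integrins had 34 SCI and 87 sham peaks (35.8 and 88.5 at nearest length) and the laminins 24 and 57 (24.7 and 58.8). Inside the genes alone, 21 members had an SCI peak (33.4% of all protein-coding genes) and 34 a sham peak (51.0%). The length classes would give 22.9 and 30.8 members with a peak inside. The densities were 1.51 SCI and 3.74 sham peaks per 100 kb of gene and window, beside 1.56 and 3.88 over all protein-coding genes. The sham list was 2.45 times as long as the SCI list over the genome. A median member had 1 SCI peak and 3 sham peaks, and a median protein-coding gene 0 and 1.

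**Figure D1:**
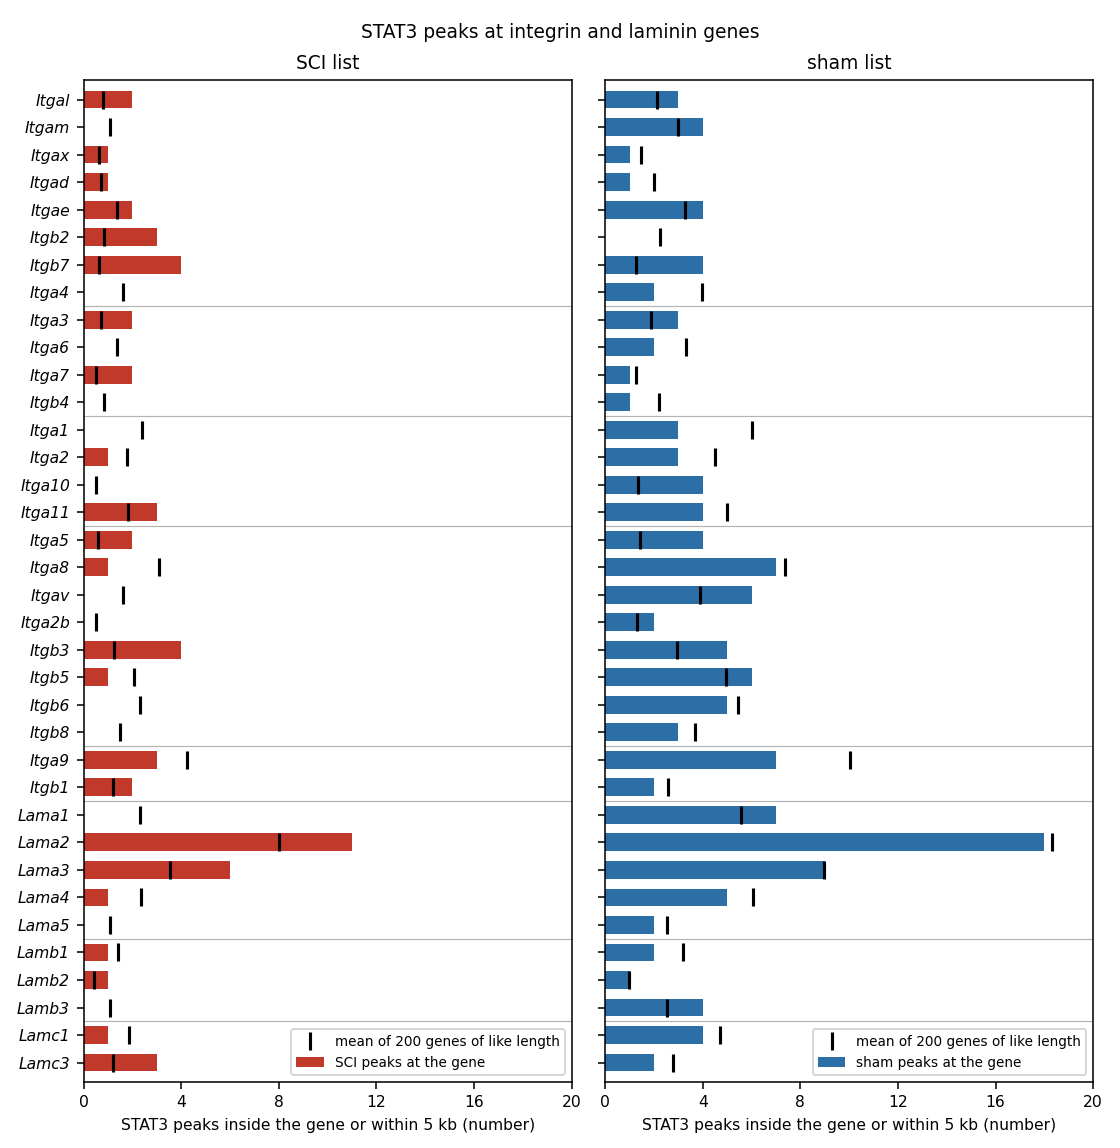
Number of STAT3 peaks (horizontal axis) at each of 36 of the genes, with 5 kb on each side, in the SCI list (left, red bars) and the sham list (right, blue bars). Black ticks give the mean of the 200 protein-coding genes nearest in length, and grey lines separate the groups by role. Itgb2, with 3 SCI peaks, has no bar in sham, and 13 genes with a sham bar have none in SCI.

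With a window of 50 kb all members but Lamb3 had a peak in both lists. An SCI peak was found at 36 of the 37 (against 84.2% of all protein-coding genes), and all 37 had a sham peak (against 95.6%). The genes of like length would give 33.9 and 36.4 members. At this distance 37 of the 65 SCI peaks and 95 of the 157 sham peaks that lay beyond 5 kb were also within 5 kb of another protein-coding gene, so they cannot be assigned to the member. Of the peaks beyond 5 kb, 2 SCI peaks, near Lama2 and Lamc1 with scores of 20.9 and 18.4, and 12 sham peaks were in the top 5% of their lists.

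By presence alone, 22 members had a peak in both lists (37.3% of all protein-coding genes), 14 in sham and not in SCI (29.3%) and 1 in SCI and not in sham (6.51%). Genes of like length gave 23.7, 9.08 and 1.51. The count with an SCI peak alone was 6 when sham was cut to its highest-scoring peaks, as many as SCI has (5.59 at like length, 15.1% of protein-coding genes), and 0 with peaks at or above the list median (2.36 and 6.61%). A sham peak alone was found at 11 members with sham so cut (5.82 at like length, 16.2% of protein-coding genes). It was found at 18 with peaks at or above the list median (11.6 and 27.3%). Without scores of the square-root form described below it was found at 19 (11.4 and 30.7%). In the lists as deposited no member lacked a peak in both, which was so for 26.8% of protein-coding genes and gave 2.74 at like length. More SCI than sham peaks were found at 3 members, Itgb2, Itga7 and Lamc3, and at 9.76% of protein-coding genes. Those with sham peaks only included Itgam, Itga4, Itga6, Itgb4, Itga1, Itga10, Itgav, Itga2b, Itgb6, Itgb8, Lama1, Lama5 and Lamb3. For Itgb6, Itgam and Itga4 the nearest SCI peak lay just past the 5 kb limit, centred 5423.5, 5930.5 and 7444.5 bp outside the gene. On the near side of the limit, the sham peaks farthest from their genes were 4856.5 bp from Itgb1 and 4817.5 bp from Itgb7.

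Among the leukocyte integrins, Itgb2 alone had SCI peaks and no sham peak in the lists as deposited. Itgb2 encodes the beta subunit that pairs with Itgal, Itgam, Itgax and Itgad on neutrophils, macrophages and lymphocytes. The gene (gene ID 16414, chromosome 10, 77530329 to 77565708) held SCI peaks at 77555294 to 77555457 and 77563245 to 77563408, with scores of 7.00 and 6.48. The score is the authors' own value per peak and was 5 or more in both lists. A further SCI peak, with a score of 6.74, lay 2162.5 bp outside the gene at 77567789 to 77567952. The nearest sham peak was 26.2 kb away and lay within 5 kb of Pttg1ip. At least 3 SCI peaks with no sham peak occurred at 31 of the 21887 protein-coding genes and at none of the 200 nearest to Itgb2 in length, where a count of 0 allows a share of up to 1.5%. This pattern, like those given below for Itgb7, Itgb3, Itgav, Lama1, Lama2, Lamb3 and Itga10, was picked out after the values were seen, with the gene's own counts as its limits, so its frequency is a description and no test. All 3 peaks lay in the lower part of the list, between the top 52.7% and the top 63.8% of the SCI list, and none was left when only peaks at or above the list median were kept. The scores of 7.00 and 6.48 had the square-root form described below. Without peaks of that form only the peak outside the gene was left, so the pattern of at least 3 SCI peaks was lost.

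Itgb7 had the most SCI peaks per length of all members, 14.6 per 100 kb of gene and window, and as many sham peaks. Itgb7 (gene ID 16421, chromosome 15, 102215994 to 102233405) encodes the beta subunit of the gut-homing integrins of lymphocytes and pairs with Itga4 and Itgae. It had 4 SCI and 4 sham peaks, where genes of its length had on average 0.615 and 1.28. At least 4 SCI peaks were present at none of the 200 genes of like length (up to 1.5% allowed by a count of 0), but at 5.46% of all protein-coding genes. The highest SCI peak, at chr15:102215802-102215965, was centred 110.5 bp outside the 3′ end of the gene and scored 16.8 (top 6.41% of SCI peaks). A sham peak overlapped it by 146 bp and scored 8.57 (top 46.1% of sham peaks). The SCI peak upstream of the start of Itgb7, whose promoter is printed above, lay at 102232721 to 102232884 with a score of 8.09, still inside the annotated gene, which reaches farther than that start. It also lay within 5 kb of Rarg. The peaks at the other end lay within 5 kb of Zfp740, and 1 SCI and 1 sham peak lay inside that gene. The highest sham peaks of Itgb7 were inside the gene, with scores of 19.7 and 16.6, and no SCI peak overlapped them.

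The other leukocyte integrins had few peaks each. Itgal, the alpha subunit of LFA-1, had 2 SCI and 3 sham peaks, and 1 position 3715.5 bp outside the gene was in both lists. Its highest SCI peak scored 12.8, inside the gene at 127331740 to 127331903 on chromosome 7. Itgad had 1 SCI and 1 sham peak, and these overlapped by 147 bp at 128170691 to 128170854, with scores of 11.2 in SCI and 11.02 in sham. Itgax, the alpha subunit known as CD11c, had 1 peak in each list at different positions, with scores of 5 in SCI and 6.22 in sham. Itgae had 2 SCI and 4 sham peaks, and its sham peak at 73139395 to 73139584 on chromosome 11 scored 28.7, in the top 3.20%. That peak was also within 5 kb of Haspin. Itgam, the CD11b subunit of microglia and macrophages, had 4 sham peaks with scores between 7.00 and 8.25. Itga4 had 2 sham peaks, and neither Itgam nor Itga4 had an SCI peak. As a group the 8 leukocyte integrins had 13 SCI and 19 sham peaks. The 200 genes nearest in length to each gave 7.62 and 19.3, and the length classes 6.84 and 17.6.

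Integrins that bind the Arg-Gly-Asp (RGD) motif of fibronectin, vitronectin and latent TGF-beta showed the lowest share of SCI peaks of the groups. The 8 genes had 8 SCI and 38 sham peaks. The 200 genes nearest in length to each gave 12.9 and 31.0, and the length classes 17.3 and 42.1. The sham count thus lay above one level and below the other. Itgav, the alpha subunit shared by the vitronectin receptors (gene ID 16410, chromosome 2, 83722303 to 83806917), had 6 sham peaks and no SCI peak. Its sham peak at 83777803 to 83777873 had the highest score at any member, 44.2, in the top 0.618% of sham peaks. With 71 bp it was the single sham peak at the members that was not 190 bp wide. A further peak at 83793113 to 83793302 scored 23.9. At least 6 sham peaks without an SCI peak were found at 179 protein-coding genes (0.818%) and at 6 of the 200 nearest to Itgav in length. The nearest SCI peak to Itgav lay 38.6 kb away.

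The other RGD receptor genes had between 0 and 4 SCI peaks. Itgb3, the beta subunit of the platelet and vitronectin receptors, had 4 SCI and 5 sham peaks, and 7 of the 200 genes of its length had as many SCI peaks. A pair of its positions was in both lists. At 104673541 to 104673704 on chromosome 11 the SCI peak scored 10.8 (top 22.2%) and the sham peak 5.31 (top 89.6%). At 104647893 to 104648056 they scored 6.14 and 5.12. The highest sham peak of Itgb3, with 25.1 in the top 4.78%, had no SCI peak over it. Itgb5 had 1 SCI peak with a score of 13.7 and 6 sham peaks, of which the one nearest to the start of the gene, at 33828074 to 33828263 on chromosome 16, scored 16.5. Itgb6 and Itgb8, the beta subunits that release TGF-beta from its latent form, had 5 and 3 sham peaks and no SCI peak. Itga5, the fibronectin receptor subunit, had 2 SCI and 4 sham peaks, and 1 position inside the gene was in both lists, with scores of 6.96 in SCI and 8.98 in sham. Itga8 had 1 SCI and 7 sham peaks, the highest of them with a score of 27.3 in the top 3.76%. Itga2b, the platelet alpha subunit, had 2 sham peaks and none in SCI.

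Set side by side, SCI peaks were 40.6% of the peaks of both lists at leukocyte integrins (95% exact binomial interval 23.7 to 59.4%) and 17.4% at RGD receptors (7.82 to 31.4%). Over all protein-coding genes the share was 28.8%, which lies within both intervals of the full groups. The intervals cover counting error only and were not adjusted for having 8 groups. Without Itgb3 the share at RGD receptors was 10.8% (3.03 to 25.4%), and that interval lies below 28.8%. Itgb3 had the most SCI peaks of these genes, so leaving it out had to lower the share, and no departure can be read from this. Without Itgav it was 20% (9.05 to 35.6%). At leukocyte integrins it was 34.5% without Itgb2 (17.9 to 54.3%) and 37.5% without Itgb7 (18.8 to 59.4%). Which genes were left out was chosen after the values were seen.

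**Figure D2:**
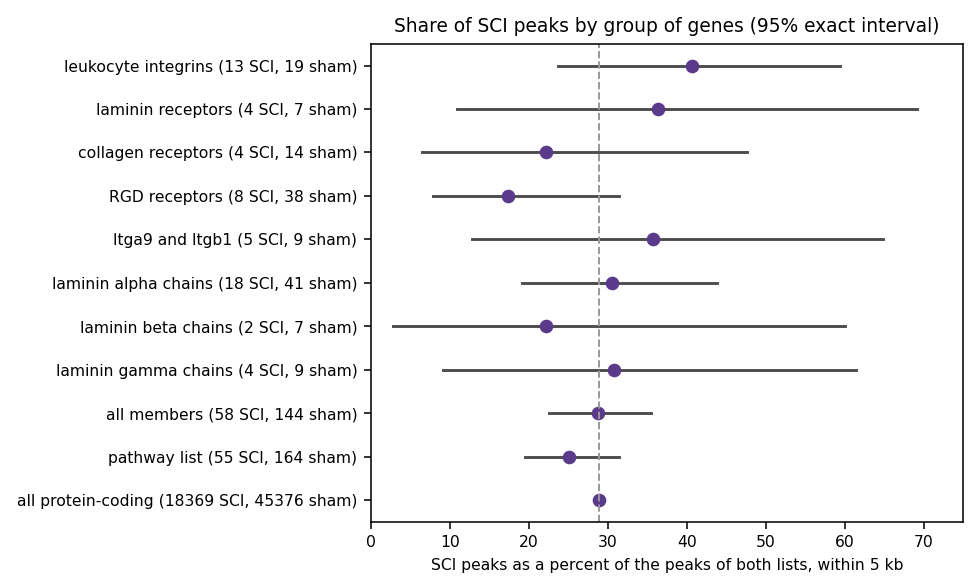
SCI peaks as a percent of the SCI and sham peaks within 5 kb (horizontal axis), for each group by role, all members, the pathway list and all protein-coding genes. Points are the shares, lines their 95% exact binomial intervals, and the dashed line is the share over all protein-coding genes, 28.8%. It crosses the interval of every group, from 17.4% at RGD receptors to 40.6% at leukocyte integrins.

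The laminin receptors had 4 SCI and 7 sham peaks (3.405 and 8.69 at nearest length). The collagen receptors had 4 SCI and 14 sham peaks, fewer than the 6.465 and 16.85 at nearest length. These differences were not tested. Of the laminin receptors, Itga7 had 2 SCI peaks and 1 sham peak. At 128952629 to 128952792 on chromosome 10 the SCI peak lay entirely within the sham peak, with scores of 10.8 in SCI and 12.5 in sham. Itga3 had 2 SCI and 3 sham peaks at different positions, with SCI scores of 5 and 5.05 near the lower limit of the list. Itga6 and Itgb4, which together form the hemidesmosome receptor, had 2 and 1 sham peaks and no SCI peak. Among collagen receptors Itga11 had 3 SCI and 4 sham peaks, none shared, and its highest SCI peak scored 14.0. Itga2 had 1 SCI and 3 sham peaks. Itga1 and Itga10 had 3 and 4 sham peaks and none in SCI. Within 50 kb Itga10 had 13 sham peaks and 1 SCI peak, and at least 13 with at most 1 was found at 71 protein-coding genes (0.324%) and at none of the 200 of its length (up to 1.5% allowed by a count of 0). Most of the peaks around Itga10 lay within 5 kb of other genes, among them Ankrd35, Lix1l and Pias3. Itgb1, the beta subunit shared by most matrix receptors, had 2 peaks in each list at different positions, the highest with a score of 8.64 in SCI and 9.20 in sham. Itga9, a receptor for tenascin C and osteopontin, had 3 SCI and 7 sham peaks, none above a score of 9.01.

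**Figure D3:**
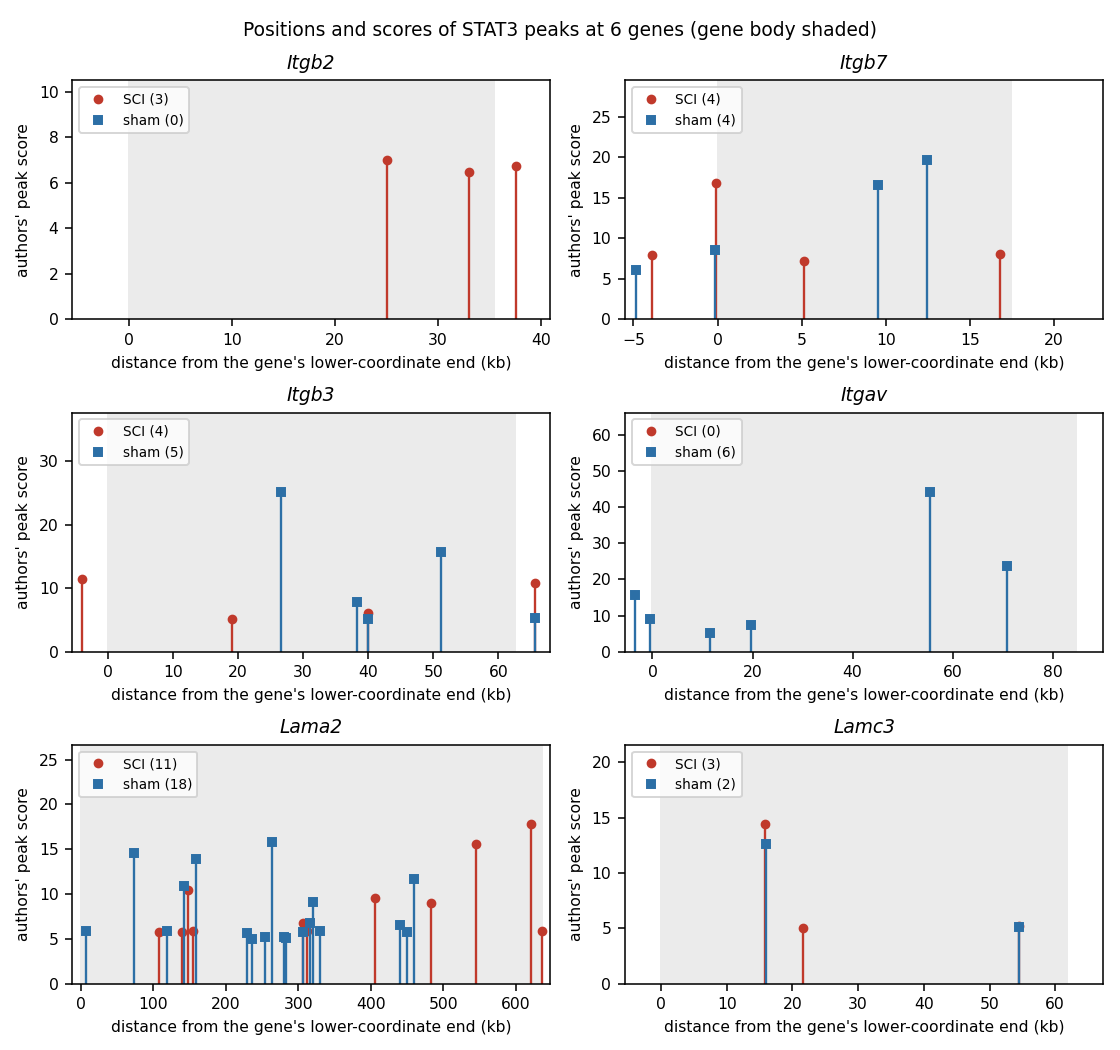
Positions of the STAT3 peaks at 6 of the genes, with the distance of the peak centre from the gene's lower-coordinate end (horizontal axis, kb) and the authors' score (vertical axis). Red circles are SCI peaks, blue squares are sham peaks, the gene body is shaded, and numbers in brackets count the peaks. Itgb2 holds 3 SCI peaks with scores from 6.48 to 7.00, Itgav 6 sham peaks up to 44.2, and Lamc3 and Itgb3 each have 2 positions found in both lists, where the symbols overlap or lie above each other.

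Among the laminins, Lama2 held the most SCI peaks and the one with the highest score at any member. Lama2 encodes the alpha chain of the laminin of muscle and of the brain's vascular and glial basement membranes, and at 636 kb it is the longest member (gene ID 16773, chromosome 10, 26981285 to 27617191). It had 11 SCI and 18 sham peaks, against means of 8.02 and 18.3 at the 200 genes nearest in length, of which 22% had at least as many SCI peaks. No position at Lama2 was in both lists. Its highest SCI peak, at 27602861 to 27603024, was 14.0 kb downstream of the start and scored 17.8 (top 5.32% of SCI peaks). The next, at 27526008 to 27526171, scored 15.6. The SCI peak upstream of the printed Lama2 promoter scored 5.93 (top 69.6%). Sham peaks at Lama2 scored 15.9 or less, and none was centred nearer than 175845.5 bp to that start.

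The other alpha chains differed from one another. Lama1, the alpha chain of the embryonic and pial laminin, had 7 sham peaks with scores between 5 and 17.4 and no SCI peak, a pattern seen at 86 protein-coding genes and at 6 of the 200 of its length. Lama3, found in epithelial basement membranes, had 6 SCI and 9 sham peaks, and 1 position, also within 5 kb of Ttc39c, was in both lists. Lama4, the alpha chain of vessel walls, had 1 SCI peak with a score of 15.97, among the top 7.41%, and 5 sham peaks. Lama5 had 2 sham peaks and no SCI peak, and the higher of them scored 23.6.

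The beta and gamma chains had between 0 and 3 SCI peaks each. Lamc3 (gene ID 23928, chromosome 2, 31887281 to 31949083) had 3 SCI and 2 sham peaks, and both sham positions were in the SCI list as well. At 31902956 to 31903119 the SCI peak scored 14.4 (top 10.3%), and the sham peak, whose overlap with it was 40 bp, scored 12.6 (top 23.7%). At 31941646 to 31941809 the scores were 5.24 in SCI and 5.10 in sham. Lamc1, the gamma chain of most laminins, had 1 SCI peak with a score of 5.82 and 4 sham peaks, the highest with 25.2 in the top 4.73%. Lamb1 had 1 SCI and 2 sham peaks. Lamb2, whose promoter carries the motif printed above, had 1 peak in each list, centred 4201.5 bp outside the gene in SCI and 998.5 bp outside in sham, and the sham centre lay inside Usp19. Lamb3, a chain of epithelial laminin, had 4 sham peaks, among them 1 that scored 33.6 (top 1.82%), and no SCI peak within 50 kb. This was also so for 3461 protein-coding genes (15.8%) and for 15 of the 200 of its length.

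The share of positions found in both lists was lower at the members than elsewhere, by less than its counting error in the lists as deposited. With at least 1 bp of overlap, 10 of the 58 SCI peaks were shared with sham, 17.2% (95% exact interval 8.59 to 29.4%), against 23.0% of the SCI peaks within 5 kb of any protein-coding gene and 21.6% of all SCI peaks. From the other side, 10 of the 144 sham peaks were shared, 6.94% (3.38 to 12.4%), against 9.30 and 8.84%. Without peaks whose score had the square-root form described below, the share of SCI peaks was 27.0% (13.8 to 44.1%), against 30.6% at protein-coding genes. With overlap of at least 50% of both peaks it was 10.3% (3.89 to 21.2%), against 15.4%. With sham cut to the SCI number it was 5.17% (1.08 to 14.4%), and the 14.8% at protein-coding genes lay above that interval. The 10 shared positions of the lists as deposited lay at 8 members, Itgal, Itgad, Itgb7, Itga7, Itga5, Itgb3, Lama3 and Lamc3. Genes of like length gave 10.6, and 16.5% of all protein-coding genes had such a position. The overlaps ran from 40 to 164 bp with a median of 118.5 bp, and the usual peak widths were 164 bp in SCI and 190 bp in sham.

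The members' peaks were of ordinary or low score. The median score was 6.82 in SCI, against 7.37 over the whole SCI list, and 7.79 in sham, against 8.07 over the whole sham list. None of the 58 SCI peaks was in the top 5% of its list, which allows a share of up to 5.17%. Of the 144 sham peaks 6 were in the top 5% (4.17%), at Itgav, Lamb3, Itgae, Itga8, Lamc1 and Itgb3. Scores that equal the form 2√n − 1, with n a whole number and a tolerance of 0.0001, were held by 21 of the SCI peaks (36.2%) and 38 of the sham peaks (26.4%), beside 33.1 and 22.9% in the whole lists. The sources used here do not say whether both lists score on the same scale, so score pairs printed together do not measure a difference in binding.

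**Figure D4:**
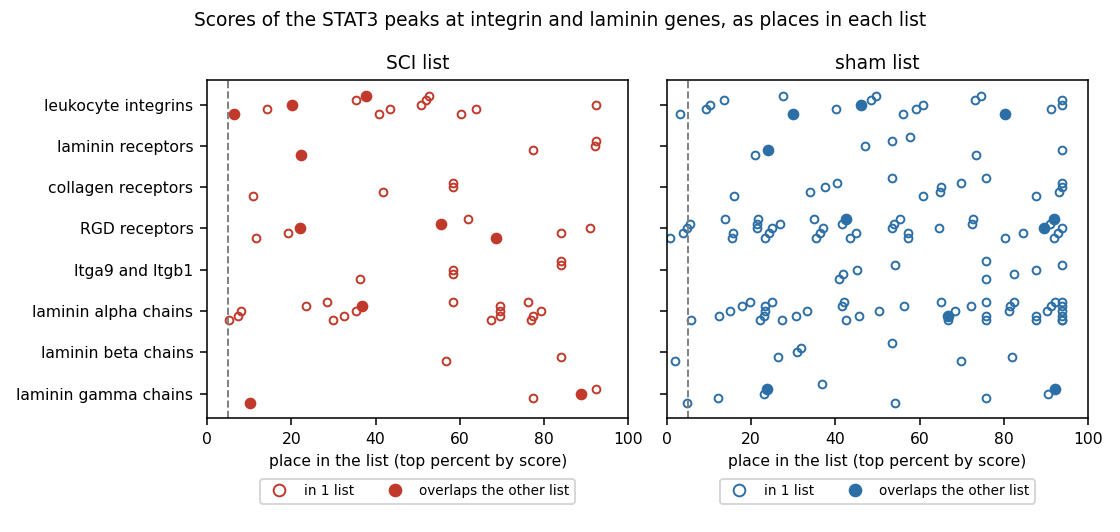
Place of each peak within its own list, as the top percent by score (horizontal axis), for the 58 SCI peaks (left, red) and the 144 sham peaks (right, blue) at the members, by role. Filled circles overlap a peak of the other list, open circles do not, and the dashed line marks the top 5%. No SCI peak and 6 sham peaks lie left of it.

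Most of the peaks lay inside the genes, 49 of 58 in SCI (84.5%) and 125 of 144 in sham (86.8%), as at genes of like length. The 200 genes nearest in length to each gave 53.7 inside of 60.5 in SCI and 130 of 147 in sham. A protein-coding gene had on average 0.728 of 0.906 SCI peaks and 1.80 of 2.25 sham peaks inside. Within 1 kb of a gene end, 2 members had an SCI peak (Lama2 and Itgb7), against 5.70% of protein-coding genes and 2.48 at like length. For sham these were 5 (Itga6, Itgav, Lama5, Lamb2 and Itgb7), against 13.1% and 5.14.

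The partners of integrins and laminins also had peaks near the number of genes of like length. In a list of 38 genes for adhesion adaptors and matrix partners, 22 had an SCI peak and 35 a sham peak, where genes of like length gave 25.3 and 32.6. Over all protein-coding genes, 43.9% had an SCI peak and 66.7% a sham peak. Of the 22 adaptors, 12 had an SCI peak and 20 a sham peak (14.2 and 18.8 at like length). Vcl, encoding vinculin, had 5 SCI and 3 sham peaks, and Fermt3, the kindlin of blood cells, had 2 and 1. No other partner had more SCI than sham peaks, which was so for 9.76% of protein-coding genes. Of the other kindlin genes, Fermt1 had 0 SCI and 4 sham peaks, and Fermt2 had 3 and 5. Of the talin genes, Tln1 had no SCI and 1 sham peak, and the much longer Tln2 had 5 SCI and 17 sham peaks. Of the 16 matrix partners, 10 had an SCI peak and 15 a sham peak (11.04 and 13.9 at like length). Hspg2, encoding perlecan, had 4 SCI and 5 sham peaks, and Nid1, encoding nidogen, 3 and 5. Spp1, encoding osteopontin, had none in SCI and 2 in sham. Parvg, Vtn and Zyx had no peak in either list, which was so for 26.8% of protein-coding genes and gave 3.79 at like length.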

How the data were processed

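The data are 2 STAT3 ChIP-seq peak lists, matched to their samples by title. Per the submitters' processing notes, alignment was to mm10 and used Bowtie2. The sources used here do not give the peak caller or its threshold. Each deposited list holds positions, a score per peak, which is the authors' own value, and a −log10 value that stands where the layout places a q-value and was not used. Sequencing depth is unknown. On chromosomes 1 to 19, X and Y the lists hold 36249 peaks in SCI and 88765 in sham, and the others were left out.

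Peak centres were counted at RefSeq genes (GRCm38.p6; its coordinates on these chromosomes are those of mm10). Like-length levels are means over protein-coding genes in the same of 10 length classes, or over the 200 nearest in length, summed over a list. Shares carry 95% Clopper-Pearson intervals. For a count of 0 the upper limit given is instead 3 divided by the number counted, an approximate 95% limit. No test between conditions was run. The counting was tested on simulated data. All members enter the counts, and 1 of them is not reported here by name. Members with a shared position, an SCI peak alone, a peak in the top 5% or a peak near a gene end are named. Positions are given for part of them, and only scores or counts for the rest. Other positions were added after the values were seen. Members, groups and lists were chosen with earlier results of these data known. The tools were pandas 2.3.3, scipy 1.17.1, numpy 2.4.6 and matplotlib 3.10.9, run under Python 3.11.15.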

Additional observations from a re-analysis of the deposited data

How the results depend on the processing

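Like-length levels here are those of the length classes, unless nearest length is named. With only peaks at or above the list median score, 13 members had an SCI peak (18.1 at like length, 28.9% of protein-coding genes). A peak in both lists was found at 13 (15.7 and 22.3%) and an SCI peak alone at 0 (2.36 and 6.61%). The members then had 24 SCI peaks (34.1, and 31.3 at nearest length) and 68 sham peaks (83.2, and 75.6 at nearest length). When sham was cut to its highest-scoring peaks, as many as SCI has, 54 sham peaks were left at the members (68.2 at like length, 62.3 at nearest length). With sham so cut, 6 members had an SCI peak alone (5.59 at like length, 15.1% of protein-coding genes). Of the SCI peaks at the members 5.17% were then shared, against 14.8% at protein-coding genes. Without peaks whose score had the square-root form, 17 members had an SCI peak (21.2 at like length, 35.5% of protein-coding genes). At the members 37 SCI peaks were then left (45.4 at like length, 41.7 at nearest length), and the shared share was 27.0%. It was 10.3% with overlap of at least 50% of both peaks. Each of the first 3 alternatives uses shorter lists. The other alternatives (gene bodies only, windows of 10, 50 and 100 kb, any overlap, centres within 1000 bp, nearest-length levels, and the leukocyte and RGD shares without single genes, chosen after seeing the data) left counts within 1.5 times and shares within their intervals. Depth is unknown, so a missing peak is no evidence of missing binding.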
